A study of Homo sapiens with 6 samples.

Results

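The genes described here are 10 transcriptional targets of ERK signalling that act on ERK signalling themselves or serve as its transcription factors: the phosphatases DUSP4, DUSP5 and DUSP6, the Sprouty genes SPRY1, SPRY2 and SPRY4, the Spred genes SPRED1 and SPRED2, and the ETS factors ETV4 and ETV5. Every probe set annotated to exactly 1 of these symbols was taken, which gave 24 of the 54613 probe sets tested. The genes were chosen for their known place in the pathway, with earlier results of these data known. Genome-wide expression was measured on 6 Affymetrix U133 Plus 2.0 arrays, each holding the RNA of 1 sample of residual MHCC97H cells. MHCC97H is an established human hepatocellular carcinoma line, and all 6 samples had been heated at 47 °C, a temperature meant to be sublethal. The treated cells (POSTN, 3 samples) received 100 ng/mL recombinant POSTN for 24 h, and the control cells (3 samples) received 0 ng/mL. POSTN is periostin, a secreted matrix protein that binds integrins, here added to the culture as a recombinant protein. The samples of both conditions carry the replicate numbers 1, 2 and 3. Neither the labels nor the methods say what a number stands for or whether the samples were separate cultures, and the p-values therefore cover only the spread among these 6 samples, which may be technical. The comparison asks whether the transcripts that usually follow ERK activity differed with POSTN, and whether they differed between replicate numbers.

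ERK1 and ERK2 are kinases at the end of a cascade that runs from receptors through the adaptors SHC1 and GRB2, RAS, RAF and MEK. Active ERK raises the transcription of genes whose products switch the cascade off again. DUSP6 is a cytoplasmic phosphatase that removes the activating phosphates of ERK, DUSP5 is a nuclear phosphatase for ERK, and DUSP4 is a nuclear phosphatase for ERK and related kinases. Sprouty proteins act between receptor and RAF, and Spred proteins bring neurofibromin to the membrane to inactivate RAS. ETV4 and ETV5 are ETS transcription factors that are induced downstream of FGF receptors and ERK and that are relieved from the repressor Capicua when ERK is active. The level of such transcripts is therefore often read as an indirect measure of ERK activity over the preceding hours, while the phosphorylation of ERK itself was not measured on these arrays.

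Levels are log2 values of the MAS 5.0 signal. A probe set was called above background when its mean over the 6 arrays exceeded 5.98, the 95th percentile of the means of 107 probe sets for olfactory receptors, and 25320 probe sets were. Of the 24 probe sets, 21 lay above this level, and each of the 10 genes had at least 1 of them. Between 47.7% and 49.7% of all probe sets lay above the level on each array. Of 11 measured hepatocyte and hepatoma markers, 7 were above background, among them AFP and the keratins KRT8 and KRT18, the last at a mean of 15.02. Of the markers of other cell types, 3 of 7 for stellate cells and fibroblasts (LUM, DCN and COL1A1), 1 of 3 for endothelium (PECAM1) and 0 of 2 for leukocytes were above background.

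With POSTN, none of the 24 probe sets passed the test. In limma, with adjustment by the Benjamini-Hochberg method over all probe sets, 0 of 24 passed an adjusted p under 0.05, and neither did any other probe set on the array (0 of 54613, 0%). The methods' t-test gave 0 after the same adjustment. At an unadjusted p under 0.05, 1 of the 24 passed in limma, while 1649 probe sets (3.02%) did so over the array. With the replicate number as a block, 2 of the 24 had an unadjusted p under 0.05, SPRY1 230212_at and ETV5 216375_s_at, against 4.76% of all, and 0 passed after adjustment. The study selected genes by p under 0.05 together with a fold change over 2 or under 0.5, and in limma 0 of the 24 and 2.56% of all probe sets met both limits. In 1 of the 24 probe sets the POSTN and control arrays were fully separate, against 7.94% of all probe sets. Taking the brightest probe set per gene, 5 genes had a positive and 5 a negative difference of POSTN minus control, with a median of 0.00021 on the log2 scale, beside 0.00015 over the first probe sets of 19775 genes. The differences of these 10 probe sets lay between -0.076 (ETV5) and 0.30 (ETV4).

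**Figure D1:**
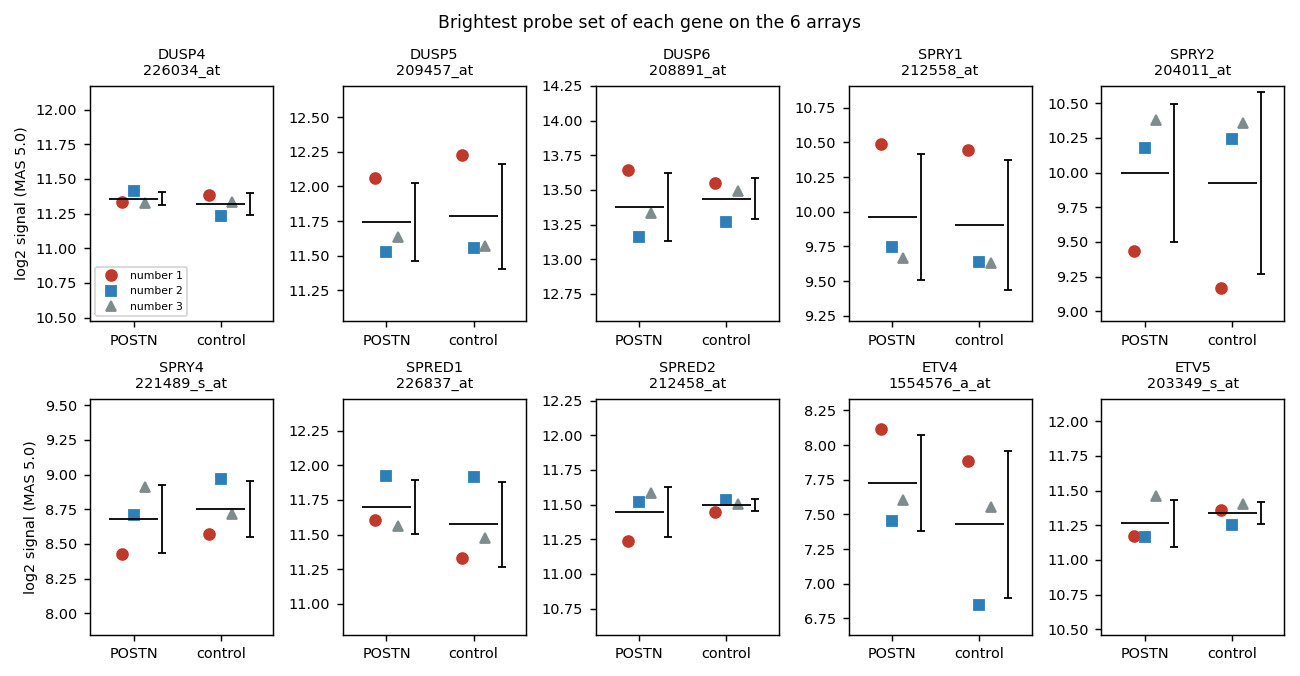
Log2 signal (MAS 5.0) of the brightest probe set of each of the 10 genes on the 3 POSTN and 3 control arrays, with marker shape and colour for the replicate number; the horizontal line is the mean of a condition and the bar its SD (n = 3), and every panel spans the same number of log2 units. The 2 conditions overlap in all 10 panels, and the arrays numbered 1 stand above the 4 others for DUSP5 and SPRY1 and below them for SPRY2.

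Among the phosphatases, DUSP6 208891_at had log2 signals of 13.64, 13.16 and 13.33 on POSTN arrays 1, 2 and 3, against 13.55, 13.27 and 13.49 on control arrays 1, 2 and 3. The conditions overlapped, and in both the array numbered 1 was the highest. The difference of POSTN minus control was -0.060 (standard error 0.13, 95% confidence interval -0.34 to 0.22). Its other probe sets, 208892_s_at and 208893_s_at, lay between 12.06 and 12.96 over the 6 arrays and also overlapped between the conditions. DUSP5, which has 1 probe set (209457_at), had log2 signals of 12.06, 11.53 and 11.64 on the POSTN arrays, against 12.22, 11.56 and 11.57 on the control arrays. Here too the array numbered 1 stood apart in both conditions, and the means of 11.74 ± 0.28 with POSTN and 11.78 ± 0.38 in control (SD, n = 3 each) differed by -0.041 (95% confidence interval -0.47 to 0.38 in limma). DUSP4 226034_at was at 11.33, 11.41 and 11.33 on the POSTN arrays, against 11.38, 11.23 and 11.33 on the control arrays. These 6 values spanned 0.18 log2 units, the narrowest range among the first probe sets of the 10 genes. The difference was 0.041 (95% confidence interval -0.16 to 0.24), and the 2 other DUSP4 probe sets differed by -0.0024 (204015_s_at) and -0.018 (204014_at).

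The Sprouty genes held the 1 probe set of the 24 whose conditions did not overlap. This count does not exceed the share of 7.94% over all probe sets. SPRY1 212558_at, the brightest of the gene, had log2 signals of 10.49, 9.74 and 9.66 on the POSTN arrays, against 10.45, 9.64 and 9.63 on the control arrays. The pattern of a high array 1 recurred in both conditions, and the difference with POSTN was 0.060 (standard error 0.26). Within the numbers 1, 2 and 3 it was 0.042, 0.10 and 0.034. SPRY1 230212_at, singled out here after its values were seen, had 7.55, 7.64 and 7.20 on the POSTN arrays, against 6.68, 6.81 and 6.61 on the control arrays. The lowest POSTN array thus exceeded the highest control array, and the difference was positive within each replicate number. It amounted to 0.77 (standard error 0.25, 95% confidence interval 0.20 to 1.33), a fold change of 1.70. In limma the unadjusted p was 0.013 and the adjusted p 0.9999, and the exact two-sided permutation test gave p = 0.10, the smallest that 3 against 3 arrays allow. SPRY1 therefore had 1 probe set that was higher on every POSTN array than on any control array and 1 that overlapped between the conditions. Both were higher with POSTN within each number, and the difference between the probe sets was not tested.

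SPRY2, with 1 probe set (204011_at), had log2 signals of 9.44, 10.18 and 10.38 on the POSTN arrays, against 9.17, 10.24 and 10.36 on the control arrays. Array 1 was the lowest in both conditions, opposite to SPRY1, and the POSTN difference was 0.075 (standard error 0.32, 95% confidence interval -0.63 to 0.78). SPRY4, also with 1 probe set (221489_s_at), had 8.42, 8.71 and 8.91 on the POSTN arrays, against 8.57, 8.97 and 8.72 on the control arrays. The conditions overlapped, with means of 8.68 ± 0.25 with POSTN and 8.75 ± 0.20 in control (SD, n = 3 each).

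The promoter windows of SPRY1 and SPRY2 are shown because these 2 genes differed in opposite directions between the replicate numbers. RefSeq windows (GRCh38.p14, 250 bases before to 50 after a start) were at hand for 6 of the 10 genes, 10 windows in all. Of the windows of each gene, the one that held a match to a searched motif is printed 5′ to 3′ on the strand of the gene, with the match in capitals. The capitals mark the ETS core CCGGAAG in SPRY1, 67 bases before the start, and the short form TGACG of the cAMP response element in SPRY2, 190 bases before the start.
SPRY1, chr4:123398136-123398435, plus strand: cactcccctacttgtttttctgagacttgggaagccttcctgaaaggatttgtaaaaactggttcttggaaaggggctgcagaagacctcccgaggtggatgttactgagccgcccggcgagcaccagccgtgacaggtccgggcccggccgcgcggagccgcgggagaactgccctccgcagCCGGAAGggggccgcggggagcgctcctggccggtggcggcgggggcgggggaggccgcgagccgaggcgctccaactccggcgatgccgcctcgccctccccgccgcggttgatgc
SPRY2, chr13:80341077-80341376, minus strand: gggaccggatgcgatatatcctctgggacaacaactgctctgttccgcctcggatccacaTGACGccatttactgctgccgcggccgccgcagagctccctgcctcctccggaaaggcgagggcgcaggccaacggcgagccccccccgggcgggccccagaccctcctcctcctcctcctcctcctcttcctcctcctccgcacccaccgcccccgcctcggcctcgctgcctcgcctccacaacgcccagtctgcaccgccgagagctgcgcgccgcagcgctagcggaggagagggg
Both strands were searched. CCGGAAG was in 1 of the 10 windows and in 10.3% of the 35116 windows of all genes, and TGACG, which is also part of the full element TGACGTCA, was in 3 of the 10 (SPRED2, SPRY2 and SPRY4) and in 24.6% of all. The AP-1 site TGANTCA was in 1 window, of SPRED2 (7.71% of all windows). The full element TGACGTCA (1.85%), the Capicua octamers TGAATGAA (1.65%) and TGAATGGA (1.03%) and the CArG box (1.29%) were in 0 of the 10. A match describes the letters of a window and not a bound site, and a window without a match lacks only those letters.

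The Spred genes also overlapped between the conditions. SPRED1 226837_at had log2 signals of 11.61, 11.93 and 11.56 on the POSTN arrays, against 11.33, 11.92 and 11.48 on the control arrays. Each POSTN array was above the control array of its number, by 0.28, 0.010 and 0.087, and here the array numbered 2 was the highest in both conditions. The difference was 0.12 (95% confidence interval -0.22 to 0.47), and the 2 other SPRED1 probe sets differed by 0.0032 (235074_at) and 0.15 (244439_at). SPRED2 212458_at had 11.24, 11.52 and 11.58 on the POSTN arrays, against 11.45, 11.54 and 11.50 on the control arrays. The lowest value was again on an array numbered 1, and the difference was -0.048 (95% confidence interval -0.28 to 0.19). The 2 other SPRED2 probe sets, 212466_at and 214026_s_at, had means of 5.01 and 1.99, below background, and no level was read from them.

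ETV4 and ETV5, the transcription factors of the group, did not separate the conditions either. ETV4 1554576_a_at had log2 signals of 8.12, 7.45 and 7.60 on the POSTN arrays, against 7.88, 6.85 and 7.56 on the control arrays. Each POSTN array was above the control array of the same number, but the spread over numbers was larger than these differences, and the mean difference was 0.30 (standard error 0.30, 95% confidence interval -0.38 to 0.97). The other ETV4 probe set, 211603_s_at, ran the other way, with 7.57, 7.05 and 7.22 on the POSTN arrays, against 7.18, 7.49 and 7.65 on the control arrays, a difference of -0.16 (standard error 0.25). ETV5 203349_s_at had 11.17, 11.16 and 11.46 on the POSTN arrays, against 11.36, 11.25 and 11.41 on the control arrays. The values overlapped and the difference was -0.076 (95% confidence interval -0.31 to 0.16). Of the 4 other ETV5 probe sets, 203348_s_at and 230102_at differed by 0.030 and 0.075, and 216375_s_at by 0.35 (95% confidence interval -0.09 to 0.79), while 231083_at had a mean of 5.96, just below background.

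**Figure D2:**
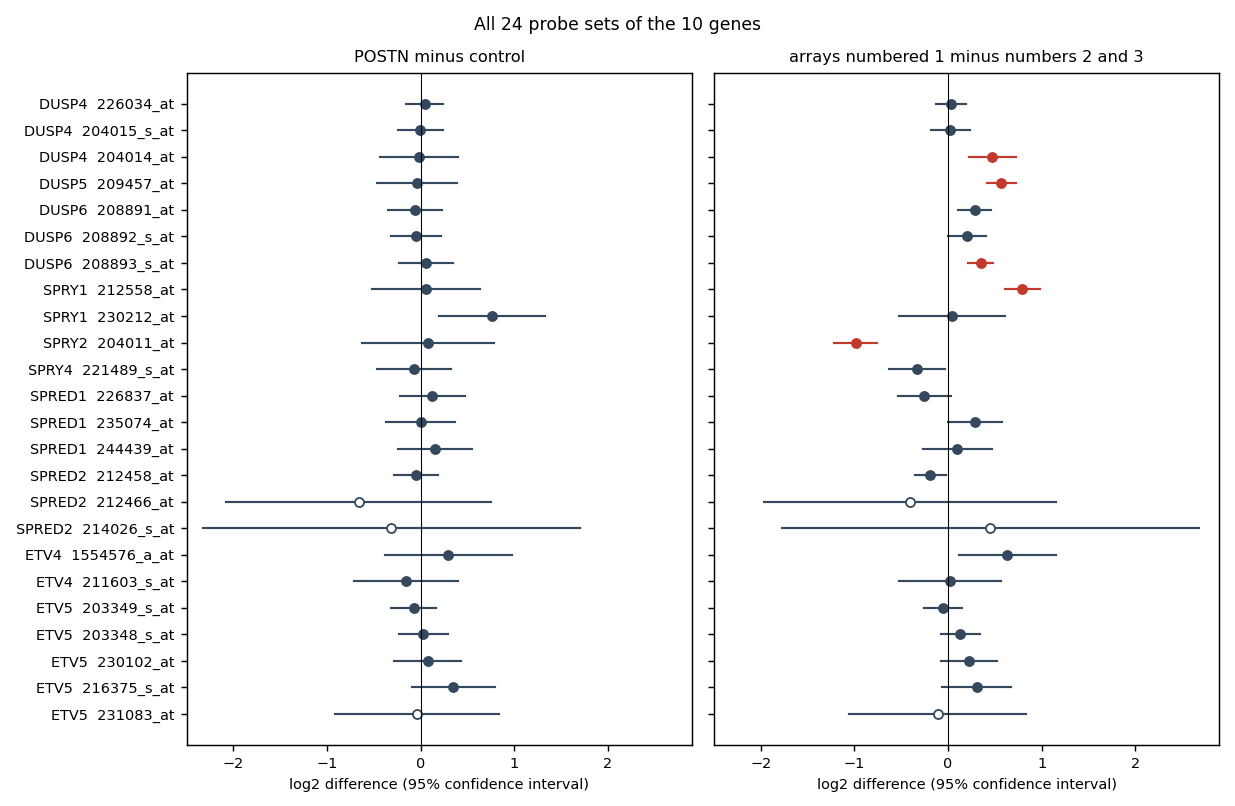
Log2 difference of POSTN minus control (left) and of the arrays numbered 1 minus those numbered 2 and 3 (right) for all 24 probe sets, with 95% confidence intervals from limma; red marks an adjusted p under 0.05 and an open circle a mean below the background level. No probe set is red on the left, and 5 are red on the right, with SPRY2 at -0.99 and SPRY1 212558_at at 0.80.

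By replicate number, some of these genes differed. The arrays numbered 1 (1 POSTN and 1 control array) were set against the 4 arrays numbered 2 and 3, with the condition in the limma fit. The choice of number 1 was made with earlier results of these data known. The p-values by number therefore do not come from a split fixed in advance. At an adjusted p under 0.05, 5 of the 24 probe sets passed, against 3069 of 54613 over the array (5.62%). Of the 5, 4 were higher on the arrays numbered 1 (2.91% of all probe sets were) and 1 was lower (2.71%). Bright probe sets passed more often, and above background the counts were 5 of 21 for these genes and 2968 of 25320 (11.7%) for the array. Counted by the first probe set of each gene, 3 of 10 passed, DUSP5, SPRY1 and SPRY2, against 8.95% of the genes and 15.1% of those above background. The arrays numbered 1 were fully separate from the 4 others in 11 of the 24 probe sets, against 26.3% of all. For this count the share above background was not taken.

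Of the phosphatases, DUSP5 was higher on the arrays numbered 1, with a mean log2 signal of 12.14 on those 2 arrays against 11.57 on the 4 others. The difference was 0.57 (standard error 0.070, 95% confidence interval 0.42 to 0.72, adjusted p = 0.00068 in limma), a fold change of 1.49. DUSP6 208893_s_at, at 12.53 and 12.46 on the arrays numbered 1 against 12.06 to 12.18 on the others, was higher by 0.35 (standard error 0.061, adjusted p = 0.0063). The brighter DUSP6 probe set 208891_at did not overlap between the numbers either, with a difference of 0.29 that missed the threshold (adjusted p = 0.072 in limma). The third, 208892_s_at, overlapped and differed by 0.20. DUSP4 gave no single answer. Its probe set 204014_at had 10.26 on POSTN array 1 and 10.45 on control array 1, against 9.75 to 10.08 on the others, and was higher by 0.47 (standard error 0.11, adjusted p = 0.035). The 2 brighter DUSP4 probe sets differed by 0.033 (226034_at, 95% confidence interval -0.13 to 0.19) and 0.027 (204015_s_at), neither of which passed.

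SPRY1 and SPRY2 showed the largest differences among the 21 probe sets above background, in opposite directions. SPRY1 212558_at averaged 10.47 on the arrays numbered 1 against 9.67 ± 0.051 (SD, n = 4) on the others, a difference of 0.80 (standard error 0.087, 95% confidence interval 0.60 to 0.99, adjusted p = 0.00032 in limma) and a fold change of 1.74. SPRY2 averaged 9.30 on the arrays numbered 1 against 10.29 ± 0.098 (SD, n = 4) on the others, a difference of -0.99 (standard error 0.11, 95% confidence interval -1.22 to -0.75, adjusted p = 0.00028). The signal of SPRY2 was thus 1.98-fold higher on the arrays numbered 2 and 3. Both differences were seen within each condition: for SPRY1 at 0.78 within the POSTN arrays and 0.81 within the control arrays, and for SPRY2 at -0.84 within the POSTN arrays and -1.13 within the control arrays. SPRY1 230212_at, the probe set whose conditions did not overlap, differed by 0.046 between the numbers (95% confidence interval -0.52 to 0.61). SPRY4 was lower on both arrays numbered 1 than on any other array, and its difference of -0.33 (standard error 0.14) did not pass (adjusted p = 0.24 in limma).

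The Spred and ETV genes had no probe set that passed in this comparison. SPRED2 212458_at was lower on both arrays numbered 1 by 0.19 on average (adjusted p = 0.21 in limma), and SPRED1 226837_at differed by -0.25 with overlap (adjusted p = 0.35). The other SPRED1 probe sets ran the other way, 235074_at by 0.29 without overlap (adjusted p = 0.29 in limma) and 244439_at by 0.099 with overlap. ETV4 1554576_a_at was at 8.12 and 7.88 on the arrays numbered 1, above the 6.85 to 7.60 of the others, and its difference of 0.64 had a standard error of 0.23 (adjusted p = 0.17). The other ETV4 probe set differed by 0.022 and ETV5 203349_s_at by -0.052 (95% confidence interval -0.26 to 0.15). The other ETV5 probe sets above background were higher on average, 203348_s_at by 0.13, 230102_at by 0.23 without overlap and 216375_s_at by 0.31.

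**Figure D3:**
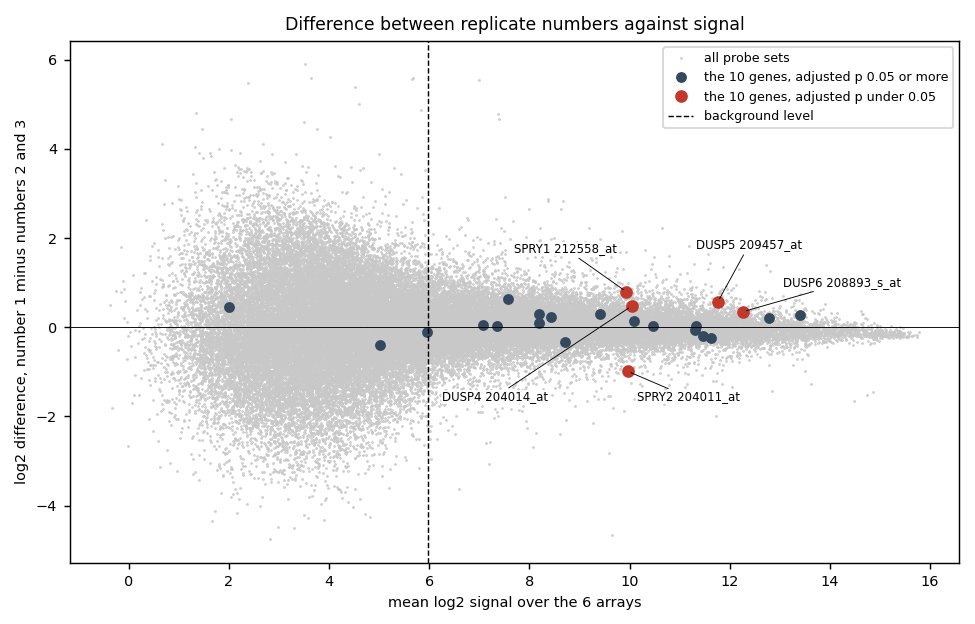
Log2 difference of the arrays numbered 1 minus those numbered 2 and 3 (vertical axis) against the mean log2 signal over the 6 arrays (horizontal axis) for all probe sets (grey) and the 24 probe sets of the 10 genes (dark, or red at an adjusted p under 0.05); the dashed line marks background at 5.98. The 5 red probe sets all lie above background, 4 above and 1 below the line of no difference.

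The replicate numbers were also fitted as 3 levels, an alternative chosen after seeing the data. An F test over the 3 numbers gave 6 of the 24 probe sets at an adjusted p under 0.05, against 4.08% of all probe sets. These were DUSP5, DUSP6 208891_at (adjusted p = 0.029) and 208893_s_at, SPRY1 212558_at, SPRY2 and SPRED1 226837_at (adjusted p = 0.017). DUSP4 204014_at was not among them (adjusted p = 0.087). Of the 24 probe sets, 21 lie above background, and the share of all probe sets above background was not counted for the F test. Numbers 2 and 3 set against each other gave 0 of the 24 and 0 over the array in limma (lowest adjusted p = 0.64), with 4 of the 24 and 3352 over the array at an unadjusted p under 0.05. SPRED1 226837_at, higher with number 2 than with number 3 by 0.40, was an example (adjusted p = 0.79). The interaction of POSTN and number 1 gave 0 over the array (lowest adjusted p = 0.99, 2474 at an unadjusted p under 0.05) and 0 of the 24 even without adjustment.

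Some markers of cell identity also differed between the numbers, while with POSTN 0 of them passed in limma, and 0 had an unadjusted p under 0.05 (1, TTR, with the replicate block). Over the first probe sets of all 19775 genes, 491 had an unadjusted p under 0.05, and 941 with the block. The marker counts by number stand beside 8.95% of all genes, and 15.1% of those above background, that passed. Of the 11 measured hepatocyte and hepatoma markers, 3 were higher on the arrays numbered 1 in limma (FGB, ALB and SERPINA1), with FGB higher by 2.65. The other markers of this list did not pass and went both ways. APOB and KRT18 were lower on both arrays numbered 1 than on any other array, with differences of -0.65 and -0.16. AHSG, below background on average, was higher on both, by 1.70. ALB averaged 7.79 on the arrays numbered 1 and 5.94 on the others, and SERPINA1 averaged 7.81 and 4.89 in the same order, so that the means of both lay below background on the arrays numbered 2 and 3. The summed linear signal of the list was 46768 to 50770 on the arrays numbered 1 against 50144 to 55001 on the others. This sum was set mostly by the keratins KRT18 and KRT8, at mean log2 signals of 15.02 and 13.96. It therefore says little about FGB, ALB and SERPINA1. Of the 7 stellate cell and fibroblast markers, DCN was lower by 1.002 on the log2 scale, and the sum was 2925 to 3349 against 3359 to 3755. Of the 3 endothelial markers, PECAM1 was higher by 0.51, with CDH5 and VWF below background and a sum of 1306 to 1546 against 906 to 1179. Both measured leukocyte markers were below background, at sums of 48.0 to 57.1 against 38.2 to 84.97. The part of these markers in the differences of the 10 genes was not tested, and in whole samples a change in a share of the cells and a change per cell cannot be told apart.

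The limma calls by number rested on a prior variance fitted as a trend over the signal. Without that trend 0 of the 24 and 0 over the array passed, with 4 and 6261 at an unadjusted p under 0.05 (adjusted p = 0.30 for DUSP5, 0.22 for SPRY1 212558_at and 0.23 for SPRY2), and with the prior without trend on probe sets above background 3 passed (0.038, 0.019 and 0.024 for the same 3). Without POSTN array 1, 3 of the 24 passed, and without control array 1, 2 did, SPRY1 212558_at and SPRY2, with DUSP5 at an adjusted p of 0.052. DUSP6 208893_s_at lost its call without either of these arrays, and DUSP4 204014_at in 4 of the 6 fits that left out 1 array.

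The rest of the pathway was described with lists of genes, each by its brightest probe set. The lists were chosen with earlier results of these data known. With POSTN, 0 genes of any list passed in limma and 0 had an unadjusted p under 0.05, and the list medians lay between -0.049 and 0.020 on the log2 scale. With the replicate block 0 passed either, while 2 genes, SHC1 and EMP1, had an unadjusted p under 0.05. Over the first probe sets of all 19775 genes, 941 did so with the block. The adjusted p of SHC1 and EMP1 in limma was 0.97. SHC1 differed by -0.11, -0.18 and -0.11 between the POSTN and control arrays numbered 1, 2 and 3, and EMP1, a membrane protein, by 0.32, 0.12 and 0.11. Of the 14 measured genes of the cascade itself, the adaptor SHC1 differed by -0.13 with POSTN on average, the adaptor GRB2 by 0.055, the kinase MAP2K1 (MEK1) by 0.067 and MAPK3 (ERK1) by 0.31 (unadjusted p = 0.30 in limma). Of 15 receptors, which include the integrin chains that can bind periostin, ITGB1 differed by -0.055, ITGAV by -0.032, ITGB5 by -0.051 and ITGB3 by 0.085.

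By number, 0 of the 9 other dual-specificity phosphatases passed in limma (3 at an unadjusted p under 0.05), with a median of -0.16. DUSP2 and DUSP8, the 2 named by rule, had levels that reached background in 1 group of arrays alone, with means on the arrays numbered 1 and on the others of 6.48 and 5.63 for DUSP2 and of 5.75 and 6.39 for DUSP8, so no difference was read from them. The counts of the lists stand beside 8.95% of all genes, and 15.1% of those above background, that passed. Of 11 other feedback regulators, 2 passed (18.2%). ERRFI1 (MIG6), an inhibitor of EGF receptors, was higher on the arrays numbered 1 by 0.33 (adjusted p = 0.0043 in limma), and RASA2, which inactivates RAS, was lower by 0.32 (adjusted p = 0.041). Of the 14 cascade genes, all above background, 3 passed (21.4%), with the docking protein GAB1 higher by 0.79, and SHC1 and the phosphatase PTPN11 (SHP2) lower by 0.26 and 0.23. Both shares are near that of the genes above background.

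Of the 21 other measured ERK target genes, 16 passed by number (76.2%), 4 higher and 12 lower, with a list median of -0.69 against -0.0018 over the first probe sets of all genes. Both this list and the choice of number 1 were made with earlier results of these data known. The share and the median are therefore a description. The 4 that were higher on the arrays numbered 1 were FOS by 1.56, EGR1 by 1.15, IER2 by 0.37 and MYC by 0.28. FOS had 9.11 on POSTN array 1 and 9.21 on control array 1, against 7.87 and 7.39 on the other POSTN arrays and 7.41 and 7.70 on the other control arrays. Both arrays numbered 1 were thus above all others in each condition. Among the 12 that were lower were the chemokine CXCL8 (-2.16), the EGF receptor ligands EREG (-1.43) and HBEGF (-0.78), the AP-1 factor FOSL1 (-0.77), the urokinase receptor PLAUR (-0.70) and the cyclin CCND1 (-0.49). TFPI2, SPHK1, MAFF, EMP1, LIF and IER3 were lower by 0.56 to 0.92. EREG had 12.02 on POSTN array 1 and 11.78 on control array 1, against 13.44 and 13.23 on the other POSTN arrays and 13.51 and 13.11 on the other control arrays. Here the arrays numbered 1 were below all others. Those of the ERK targets that passed thus included both directions, as did the feedback genes that passed.

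Of the 15 receptors, 6 passed by number (40.0%). ERBB3, a partner of EGF receptor family members, was higher on the arrays numbered 1 by 2.65, with log2 signals of 10.39 on POSTN array 1 and 10.42 on control array 1, against 7.74 and 7.49 on the other POSTN arrays and 7.94 and 7.86 on the other control arrays. This was the widest gap among the receptors. FGFR4 was higher by 1.25 and IGF1R by 0.51. EGFR was lower on the arrays numbered 1 by 0.83, the integrin chain ITGB1 by 0.32 and ITGB3 by 1.24.

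**Figure D4:**
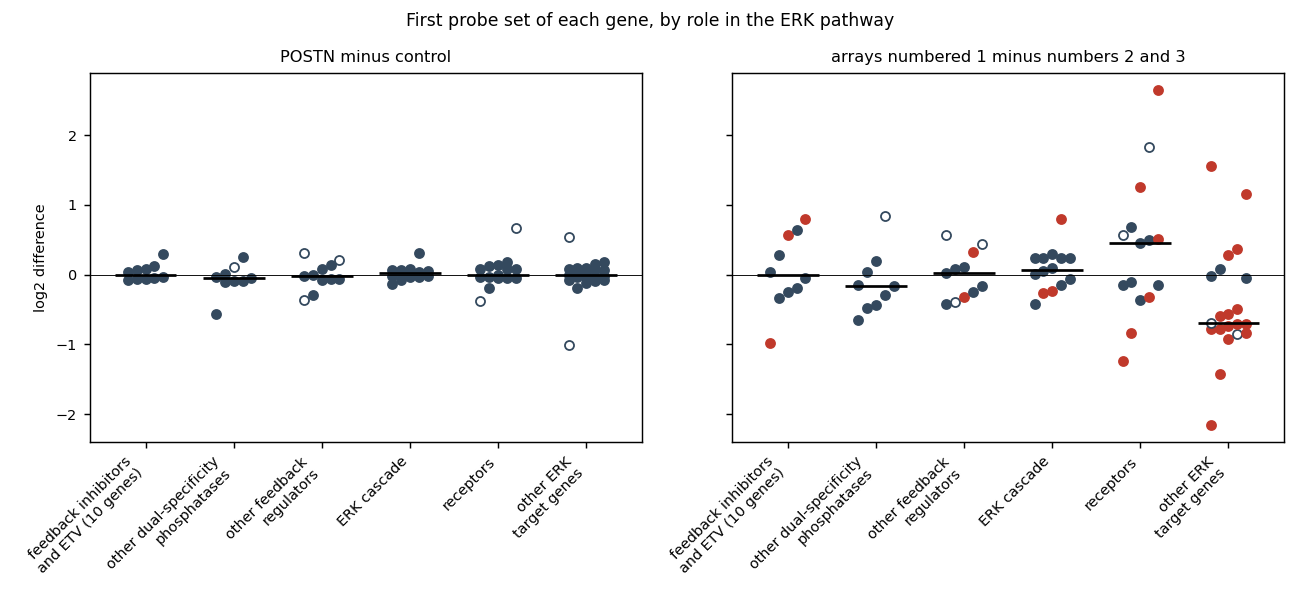
Log2 difference of POSTN minus control (left) and of the arrays numbered 1 minus those numbered 2 and 3 (right) for the first probe set of each gene, with 1 column per role in the pathway; red marks an adjusted p under 0.05 in limma, an open circle a mean below background, and the black line the median of the column. No gene is red on the left, and on the right the other ERK target genes have the lowest median, -0.69. The lists and the choice of number 1 were made with earlier results of these data known.

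Only 2 of the 10 genes, SPRY2 and ETV4, ranged over at least 1 log2 unit on the 6 arrays, by 1.21 and 1.27. The 3 genes of 11540 whose first probe set followed SPRY2 most closely over the 6 arrays were MAK16 (Pearson r = 0.9997), CEP72 (0.998) and ITGA2 (0.998), and 866 genes had an r over 0.9. For ETV4 they were RIOK1 (0.995), PSCA (0.994) and GUCY1B1 (0.993), and 243 genes had an r over 0.9. These correlations describe 6 arrays that share the split between replicate numbers.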

How the data were processed

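The authors scanned the arrays and derived signals with MAS 5.0 and the affy package in R. Neither version is given in the sources used here. As deposited, the values are log2 MAS 5.0 signals: after removal of the top and bottom 2%, the linear signals averaged 500.0 on each of the 6 arrays. MAS 5.0 subtracts background and mismatch signal, so log2 values of dim probe sets scatter widely. No 2 arrays held equal values. The 62 Affymetrix control probe sets were left out. Symbols came from the platform annotation, in which 41091 probe sets have 1 symbol, 1801 several and 11721 none.

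The log2 values were tested as deposited and unfiltered with limma 3.58.1 in R 4.3.3 (eBayes with a trend), and all 54613 p-values of a comparison entered the Benjamini-Hochberg adjustment. POSTN was compared with control over 3 and 3 arrays, and number 1 with numbers 2 and 3 with the condition as a covariate. A t-test, named in the methods of the study, was run as an alternative. The scripts were tested on simulated data.

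The members and lists, and the choice of number 1, were made with earlier results of these data known. All 10 genes were named, with the brightest probe set first. Of each further list, the genes that passed were named, or the 2 with the largest differences where none did, and a few cascade genes and receptors that did not pass were named after their values were seen. Likeness was the highest Pearson r. List genes without a probe set of 1 symbol were not analysed here.

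Deviations of same-numbered arrays from their condition's mean had correlations of 0.088, 0.034 and 0.025 for all probe sets together, and of 0.53, 0.23 and 0.24 for those above background, where each array correlated best with its own number. On that basis differences within a number are given and the replicate block was run as an alternative. The main POSTN fit was unpaired, so its standard errors and confidence intervals include the spread between numbers. No source states this pairing.

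The alternatives were quantile normalization, median centring, log2(value + 50), a filter at the background level, a prior without trend, array weights, leaving out _x_at and _s_at probe sets, the replicate block, the methods' t-test, and leaving out arrays.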

Additional observations from a re-analysis of the deposited data

Results flagged for a closer look

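DUSP6 208893_s_at had a log2 signal of 12.06 on control array 2, apart from 12.16 to 12.18 on the 3 other arrays numbered 2 and 3. Its gap to the nearest of them was 0.836 of the range of the 4 arrays, over the 95% critical value for 4 samples. It was 1 of the 24 probe sets examined in this way, and chance sets apart about 1 in 20.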

How the results depend on the processing

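With POSTN, the count of 0 among the 24 probe sets and 0 over the array held in each alternative that was run. The replicate block also gave 0 and changed no call, while it moved the count at an unadjusted p under 0.05 to 2 of the 24, against 1 without it. By number, limma gave 5 of the 24 and 3069 over the array. The counts were 0 and 0 with a prior without trend, and 3 and 1465 with that prior on probe sets above background, an alternative chosen after seeing the data. Leaving out _x_at and _s_at probe sets, which leaves fewer to test and no value for SPRY4, gave 1750 over the array. Leaving out 1 array gave 2 to 6 of the 24 and 657 to 3073 over the array, with 657 without POSTN array 1, 718 without control array 1 and 1869 without POSTN array 3, and where 1 array numbered 1 was left it was assumed to vary like the others. The cause of the loss without a trend was not tested.

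Directions changed only for values that had not passed. Leaving out 1 array at a time, the POSTN difference ran over -0.20 to 0.18 for DUSP5, -0.0014 to 0.075 for DUSP4 226034_at, -0.15 to 0.18 for DUSP4 204014_at, -0.19 to 0.050 for DUSP6 208891_at, -0.060 to 0.17 for DUSP6 208893_s_at, -0.20 to 0.33 for SPRY1 212558_at, -0.30 to 0.36 for SPRY2, -0.18 to 0.062 for SPRY4 and -0.12 to 0.055 for SPRED2. The difference by number ran over -0.036 to 0.10 for DUSP4 226034_at, -0.057 to 0.13 for SPRY1 230212_at and -0.14 to 0.035 for ETV5. Without both arrays numbered 1, the POSTN difference was 0.019 for DUSP5, -0.021 for SPRY2, 0.032 for SPRED2 and 0.070 for DUSP4 204014_at. It was -0.010 for DUSP4 226034_at with median centring and 0.0068 for DUSP4 204014_at with array weights. With quantile normalization SPRY1 230212_at was at -0.020 by number.

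DUSP4 204014_at also lost its call by number with log2(value + 50) and with either prior without trend. Of the 24 probe sets, 3 lay below background, where MAS 5.0 values carry little information. With 3 arrays a condition, the median standard error above background was 0.18 for the POSTN difference and 0.14 by number; differences near these sizes lay within the error.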
